A study of Homo sapiens with 6 samples.

Results

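The genes of the SR proteins, the hnRNPs and the U2AF splicing factors were examined in HGC-27, a human gastric cancer cell line, with and without overexpression of GC0643. They were taken by gene type and symbol: protein-coding genes whose symbol is SRSF or HNRNP with its letters and digits, together with U2AF1, U2AF1L4, U2AF2, TRA2A and TRA2B. Of 58825 genes in the count table, 43 met this rule: 12 SR proteins, 2 SR-like proteins, 26 hnRNPs and 3 U2AF genes. U2AF1L5, which the rule also names, was not analysed here. GC0643 is a gene that the study predicted from sequence missing from the reference genome. RNA was measured by sequencing in 3 libraries labelled GC0643 overexpression and 3 libraries of cells labelled Vector control. Per the study's methods, stable lines were made by retroviral infection and puromycin selection. Both groups are the same cell line in the same medium, and the sources used here do not say whether a line was a clone or a pool. GC0643 itself was not analysed here, so no count checks the labels.

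Splicing removes introns from pre-mRNA. SR proteins carry RNA recognition motifs and a tail rich in arginine and serine, bind exonic enhancers and help the spliceosome choose splice sites. hnRNPs coat nascent transcripts and often repress nearby splice sites. U2AF is a heterodimer that marks the end of the intron: U2AF2 binds the polypyrimidine tract and U2AF1 the AG dinucleotide at the 3′ splice site. Many SR protein and hnRNP genes hold exons whose inclusion exposes the transcript to nonsense-mediated decay, by which these proteins limit their own mRNA. Mutations of U2AF1 recur in myeloid cancers and in lung adenocarcinoma.

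In the GRCh38 assembly, U2AF1 has a copy on the same chromosome. The identity of the sequences is shown first because it bears on every U2AF1 count. Whether the copy is a second gene in these cells or a duplication in the assembly alone was not tested. U2AF1 lies on the minus strand of chromosome 21, from 43092956 to 43107570 in GRCh38, and the copy lies between 6484623 and 6499248. All 8 coding exons of the canonical U2AF1 transcript, 720 bases without the stop codon, matched the copy with 0 differences. The second coding exon, 88 bases that encode an N-terminal stretch of the protein, is printed from both places in the direction of transcription. Capitals would mark a base that differs, and there was none.
U2AF1 at chr21:43104315-43104402: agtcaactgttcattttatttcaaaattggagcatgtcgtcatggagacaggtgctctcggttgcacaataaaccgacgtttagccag
Copy at chr21:6495993-6496080: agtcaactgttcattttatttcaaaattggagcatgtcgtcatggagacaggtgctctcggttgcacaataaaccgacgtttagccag
Of the 64-base stretches within the U2AF1 exons, 453 of 465 (97.4%) occurred elsewhere in the genome. A read from such a stretch cannot be given to 1 of the places. The study's methods count only uniquely mapped reads in its tumour RNA-seq, and no such option is stated for these cell line libraries.

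The sequence before the transcription start was available from RefSeq for 38 of the 43 genes, in GRCh38.p14. HNRNPA1, HNRNPA1L3, HNRNPCL3, SRSF2 and TRA2A had no entry. The 250 bases before the start of HNRNPH2 and SRSF3, the genes among these 38 with the smallest p of an hnRNP and of an SR protein, and of U2AF1L4, the gene lower at the smallest p, are printed in the direction of transcription. Capitals mark the letters of a motif found on either strand. The motifs searched were the TATA box (letters TATAAA), the CCAAT box (its 5 letters), the GC box (letters GGGCGG), the E box bound by MYC (letters CACGTG), a form of the ETS site (letters CCGGAAG) and the CRE palindrome (letters TGACGTCA). No 2 of these motifs are contained in each other.
HNRNPH2 at chrX:101407972-101408221, plus strand: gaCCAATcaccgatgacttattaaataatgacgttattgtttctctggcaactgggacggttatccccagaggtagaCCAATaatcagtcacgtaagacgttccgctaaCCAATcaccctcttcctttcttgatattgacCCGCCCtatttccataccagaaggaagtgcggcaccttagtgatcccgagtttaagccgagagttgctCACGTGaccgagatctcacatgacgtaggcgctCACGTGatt
SRSF3 at chr6:36594112-36594361, plus strand: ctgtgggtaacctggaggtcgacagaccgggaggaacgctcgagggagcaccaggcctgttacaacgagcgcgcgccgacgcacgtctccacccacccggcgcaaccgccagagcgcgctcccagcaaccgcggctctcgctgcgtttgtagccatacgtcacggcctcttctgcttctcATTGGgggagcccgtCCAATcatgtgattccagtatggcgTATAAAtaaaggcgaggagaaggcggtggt
U2AF1L4 at chr19:35745419-35745668, minus strand: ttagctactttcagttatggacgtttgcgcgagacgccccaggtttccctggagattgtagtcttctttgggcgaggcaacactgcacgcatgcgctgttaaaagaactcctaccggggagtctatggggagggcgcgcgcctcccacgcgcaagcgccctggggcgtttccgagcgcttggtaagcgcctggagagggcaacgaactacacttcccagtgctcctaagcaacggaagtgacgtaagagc
HNRNPH2 held the CCAAT box, the GC box and the E box, SRSF3 the TATA box and the CCAAT box, and U2AF1L4 none of the motifs. The GC box occurred in 60.5% of the 38 windows, against 42.3% of 27305 windows of the same length over all genes. The CCAAT box occurred in 44.7% against 33.0%, and the E box in 15.8% against 6.49%. The ETS site occurred in 15.8% against 8.82% and the TATA box in 13.2% against 11.1%. The CRE palindrome occurred in 0 of 38 windows and in 1.77% of all windows. The median GC content of these windows was 65.2%, against 58.0% over all genes. These are counts of letters, not of bound factors.

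Total counts of the libraries ranged from 20376722 to 24069166. The 43 genes took between 0.78% and 1.18% of the counts of a library. Vector control replicate 2 lay among the overexpression libraries for most members, and Vector control replicate 3 lay lowest for most of them, as the member medians below show. Fold changes over all genes fell with the GC content of the transcript. Of 6 epithelial markers, KRT18, KRT19, EPCAM and CDH1 had at most 9 counts in a library, KRT8 had 83 to 159, CLDN4 had 39 to 65, and of 6 gastric lineage markers MUC6 alone had more than 1 count in any library. The 6 mesenchymal markers, VIM and COL1A1 among them, summed to between 7156 and 7999 CPM (TMM-scaled counts per 1e6 counts of a library), so the RNA held mesenchymal transcripts and almost no transcripts that define gastric epithelium. Of these 6 markers 2 were higher at an unadjusted p under 0.05, against 13.1% of all genes tested, with groups that did not overlap. The other 4 had overlapping groups, with log2 fold changes of −0.36 for PDGFRB, −0.08 for COL1A1, 0.02 for COL3A1 and 0.03 for VIM. The median of the 6 was 0.03. DCN had a log2 fold change of 0.47 (unadjusted p = 0.0057), or 0.17 after GC correction, and COL1A2 0.46 (unadjusted p = 0.0068), or 0.57 (unadjusted p = 0.00078) after GC correction. Both are named after their values were seen, and their part in the results on splicing factors was not tested. Leukocyte markers summed to at most 7.73 CPM and endothelial markers to at most 0.47 CPM. In RNA of whole cultures, fewer cells with a transcript and less of it per cell cannot be told apart.

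Levels spanned a wide range within the families. They are compared per kilobase of the canonical transcript, as CPM scaled by TMM and averaged over the 6 libraries. HNRNPA1, which binds splicing silencers and shuttles between nucleus and cytoplasm, was highest at 317 CPM per kilobase. HNRNPAB followed at 284 and HNRNPA2B1 at 253. SRSF2, the SR protein mutated in myelodysplasia, was the highest SR protein at 193 CPM per kilobase, followed by SRSF5 at 74.5 and SRSF1 at 67.9. U2AF2 stood at 127 CPM per kilobase, U2AF1L4 at 21.4 and U2AF1 at 9.24. TRA2B and TRA2A, SR-like proteins that bind GAA-rich enhancers, stood at 35.6 and 32.2. SRSF12, the lowest of the 39 members tested, had 0.218 CPM per kilobase. HNRNPCL1, HNRNPCL2, HNRNPCL3 and HNRNPCL4, retrogene relatives of HNRNPC, had at most 2 counts in any library and were not tested. HNRNPCL3 was at 0 in all 6 libraries, which allows up to 3 counts in each. Neighbours in the order often overlapped over libraries: HNRNPL at 209 CPM per kilobase, HNRNPM at 206 and HNRNPK at 196 could not be ordered from these 6 libraries.

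**Figure D1:**
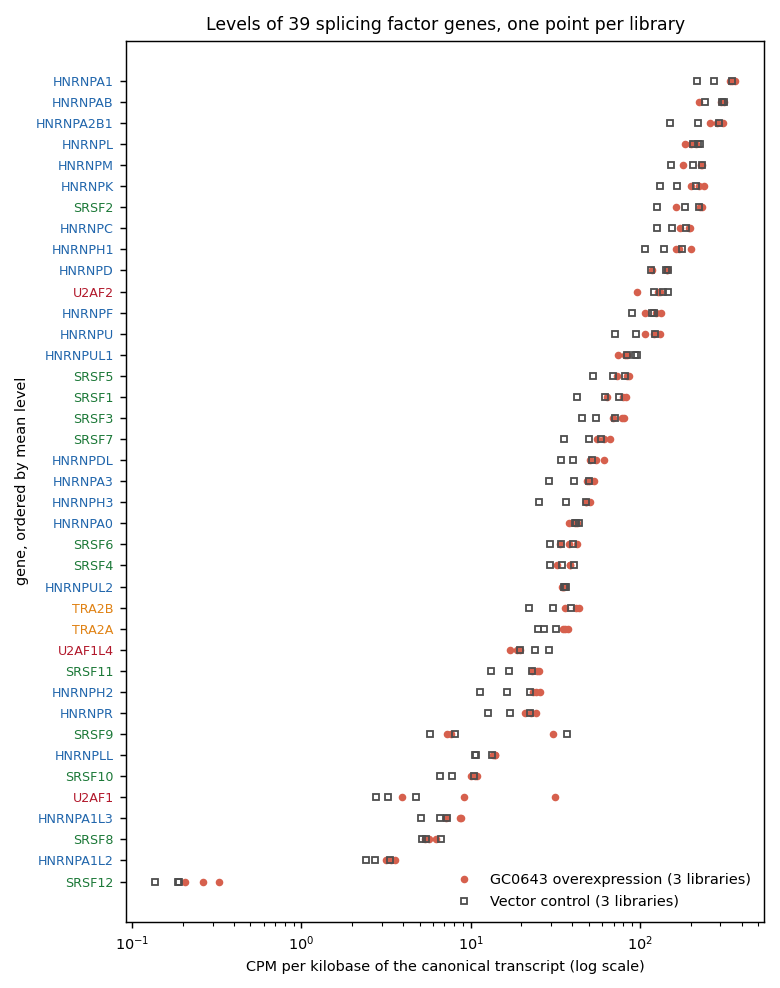
Levels of the 39 tested genes in CPM per kilobase of the canonical transcript on a log scale, one point per library, with GC0643 overexpression as filled circles and Vector control as open squares. Genes are ordered by their mean, from SRSF12 at 0.218 to HNRNPA1 at 317 CPM per kilobase, and U2AF1 and SRSF9 have the widest spread between libraries.

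The comparison asks whether the splicing factor transcripts differ between cells with and without GC0643 overexpression. Of the 43 genes, 39 passed the filter on low counts. None of them passed an adjusted p under 0.05 in edgeR's quasi-likelihood test, and neither did any of the 19528 genes tested (0%). The likelihood ratio test, DESeq2 and limma voom called 0 members as well, against 16, 1 and 0 of all 19528 genes tested. At an unadjusted p under 0.05, 14 members were higher with GC0643 overexpression, against a background of 13.1% of all genes tested. In the other direction 1 member, U2AF1L4, was lower, against a background of 5.26%. Scaling by DESeq2's size factors gave 12 higher and 1 lower, and moved the split over all genes from 2553 higher and 1028 lower to 2194 and 1445. Log2 fold changes were positive for 31 members and negative for 8, with a median of 0.32 against 0.02 over all genes tested. The median was 0.30 for the SR proteins, 0.39 for the SR-like pair, 0.30 for the hnRNPs and −0.18 for the U2AF genes. Groups did not overlap for 5 members that were higher with GC0643 overexpression, TRA2A, HNRNPH2, HNRNPH3, HNRNPLL and SRSF12, against 11.8% of all genes. They did not overlap for 2 members that were lower, U2AF1L4 and HNRNPUL1, against 10.5% of all genes. For SRSF12 this held in CPM but not in counts, with 15 in GC0643 overexpression replicate 3 and 16 in Vector control replicate 3. The study's thresholds ask for a fold change of more than 1.5 with p below 0.05, and U2AF1 alone met them, against 2.47% of all genes.

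The controls also differed among themselves in these genes. Set against its own 6-library mean, the median member lay at 0.05, 0.17 and 0.23 on the log2 scale in GC0643 overexpression replicates 1, 2 and 3. It lay at −0.15, 0.15 and −0.48 in Vector control replicates 1, 2 and 3. Vector control replicate 2 was thus within the range of the overexpression libraries, and the controls differed among themselves by more than the groups did. SR proteins gave 0.02, 0.19 and 0.24 against −0.13, 0.18 and −0.51, and hnRNPs 0.04, 0.15 and 0.22 against −0.14, 0.15 and −0.45. Both families followed the same order of libraries.

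**Figure D2:**
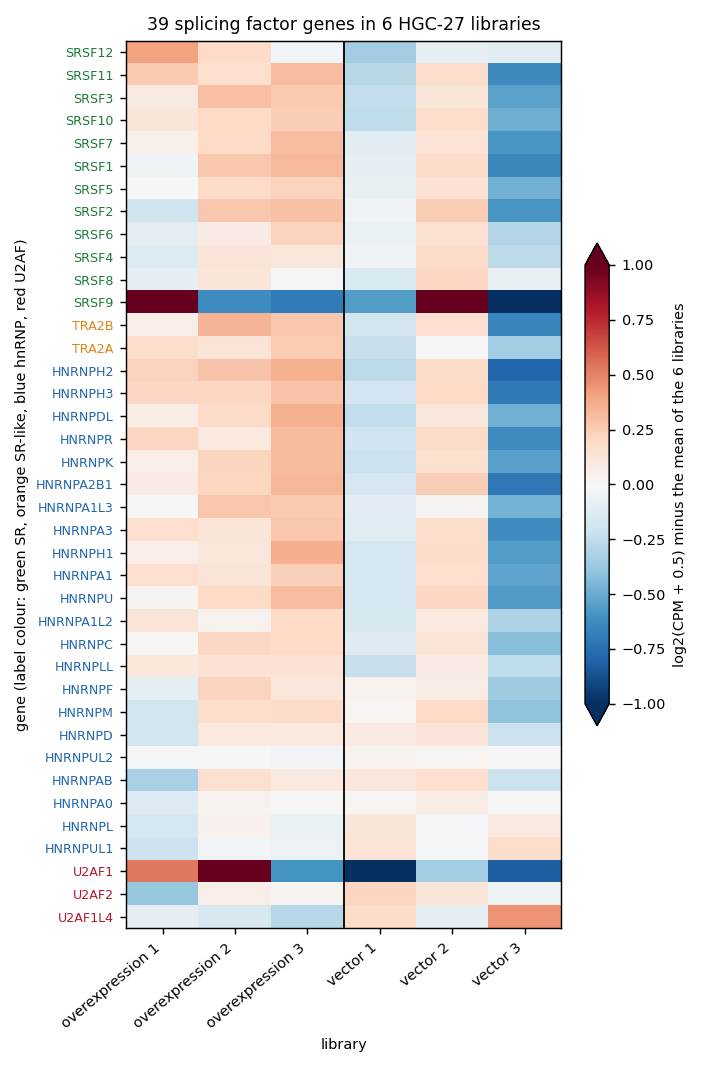
Each row is 1 of the 39 tested genes and each column a library. Colour gives log2(CPM + 0.5) minus the mean of the 6 libraries, clipped at ±1. Most SR, SR-like and hnRNP rows are pale red in the 3 overexpression libraries and in Vector control replicate 2, and blue in Vector control replicates 1 and 3, while SRSF9 and U2AF1 follow other orders.

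U2AF1 had the largest log2 fold change of the 39 members and also differed within the overexpression group. Its counts were 185, 633 and 75 in GC0643 overexpression replicates 1, 2 and 3 and 53, 93 and 74 in Vector control replicates 1, 2 and 3. Replicates 1 and 2 of the overexpression group lay above every control, and replicate 3 lay inside the control range, so the groups overlapped. In CPM the means were 14.1 ± 13.9 and 3.4 ± 0.99 (SD, n = 3 each). The log2 fold change was 2.05 (SE 0.52, unadjusted p = 0.00126, adjusted p = 0.26, edgeR's quasi-likelihood test with Benjamini-Hochberg adjustment). Without GC0643 overexpression replicate 2 it was 0.85 (unadjusted p = 0.024). Leaving out GC0643 overexpression replicate 3, Vector control replicate 2 or Vector control replicate 3 brought the adjusted p to 0.000156, 0.0238 and 0.00234 in the same edgeR test, and over all alternatives it ranged from 2.04e-19 to 0.784. U2AF1 stood at 4.15%, 10.6% and 1.35% of the CPM of its partner U2AF2 in the overexpression libraries and at 0.83%, 1.54% and 1.18% in the controls. The highest CPM was 11.4 times the lowest, a ratio exceeded by 3 of 13238 genes with a mean over 5 CPM. Nearly all U2AF1 sequence is shared with the copy in the assembly, and how shared reads were counted is not stated. These counts therefore cannot be read as the level of U2AF1.

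The other U2AF genes showed no such spread. U2AF2 had 208, 282 and 275 CPM with GC0643 overexpression and 314, 293 and 261 CPM in the controls. The groups overlapped, and the log2 fold change was −0.18 (SE 0.13, unadjusted p = 0.19). U2AF1L4, a shorter relative of U2AF1 on chromosome 19, had 15.1, 14.3 and 13.1 CPM with GC0643 overexpression and 18.4, 15.1 and 22.2 CPM in the controls. Each overexpression library lay below each control, replicate 1 by little. The log2 fold change was −0.39 (SE 0.17, unadjusted p = 0.032). A neighbouring transcript on the same strand covers 24.8% of the U2AF1L4 exons, and its part in the count was not tested.

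**Figure D3:**
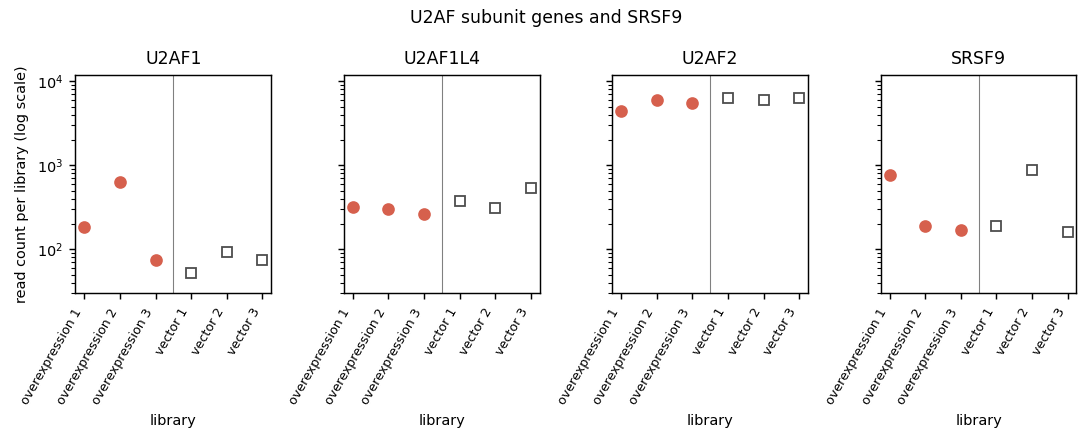
Read counts of U2AF1, U2AF1L4, U2AF2 and SRSF9 in each of the 6 libraries on a log scale, with GC0643 overexpression as filled circles and Vector control as open squares. U2AF1 is high in overexpression replicates 1 and 2, at 185 and 633 counts, and SRSF9 in overexpression replicate 1 and Vector control replicate 2, at 760 and 877 counts.

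Among the SR proteins, 11 of 12 had positive log2 fold changes, against 10136 of all 19528 genes tested. At an unadjusted p under 0.05, 4 were higher, against 13.1% of all genes tested: SRSF3, SRSF11, SRSF10 and SRSF7. SRSF3, the smallest SR protein and a factor that also exports mRNA, had 295, 341 and 333 CPM with GC0643 overexpression. In the controls it had 234, 302 and 192 CPM. Vector control replicate 2 lay above overexpression replicate 1, and the log2 fold change was 0.41 (SE 0.15, unadjusted p = 0.014). SRSF11 had 97.2, 91.1 and 100 CPM with GC0643 overexpression and 66.6, 91.4 and 52.1 CPM in the controls. Again Vector control replicate 2 overlapped the overexpression range, with a log2 fold change of 0.46 (SE 0.17). SRSF10, a splicing repressor once dephosphorylated, had 77.3, 81.5 and 84.1 CPM against 59.3, 80.5 and 50.6 CPM. SRSF7, a close relative of SRSF3 with a zinc knuckle, had 131, 146 and 157 CPM against 117, 139 and 84.5 CPM. Both had log2 fold changes of 0.35 and overlapped only through Vector control replicate 2.

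The most abundant SR proteins did not pass at an unadjusted p under 0.05. SRSF2 had 310, 429 and 438 CPM with GC0643 overexpression and 348, 424 and 238 CPM in the controls. SRSF1, which like SRSF2 promotes exon inclusion and is an oncogene in several tissues, had 343, 427 and 444 CPM against 333, 403 and 227 CPM. SRSF5 had 110, 126 and 129 CPM against 104, 122 and 78.7 CPM. In each of the 3 genes the control values spread wider than the overexpression values, and Vector control replicate 3 was lowest. Their log2 fold changes were 0.22, 0.33 and 0.26. MFSD11, on the opposite strand, covers 27.7% of the SRSF2 exons and had a log2 fold change of 0.16. Another gene on the same strand shares 32.7% of the SRSF1 exons. The part of these overlaps in the counts was not tested. The other SR proteins had log2 fold changes from −0.14 to 0.63. SRSF12, at the top of that range, rested on 25, 20 and 15 counts against 10, 14 and 16.

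SRSF9, named here after its values were seen, stood apart from its family. Its counts were 760, 187 and 170 in GC0643 overexpression replicates 1, 2 and 3 and 188, 877 and 159 in Vector control replicates 1, 2 and 3. In each group 1 library lay far above the other two, and the group means of 17.6 and 19.5 CPM had SDs of 15.5 and 20.03 (n = 3 each). The log2 fold change was −0.14 (SE 0.58), 1.15 when Vector control replicate 2 was left out and −1.17 when GC0643 overexpression replicate 1 was left out. The ratio of the highest to the lowest CPM was 6.44, exceeded by 13 of the 13238 genes with a mean over 5 CPM, among which the median ratio was 1.47. GATC, on the opposite strand, covers 43.6% of the SRSF9 exons and had 772, 657 and 655 counts with GC0643 overexpression and 665, 685 and 666 in the controls. The highest GATC count lay in GC0643 overexpression replicate 1, and the part of GATC in the SRSF9 counts was not tested. A strand setting is stated neither for these libraries nor for the tumour RNA-seq of the study.

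Both SR-like genes were higher at an unadjusted p under 0.05, against 13.1% of all genes tested. TRA2A had 64.3, 62.5 and 67.6 CPM with GC0643 overexpression and 48.4, 57.1 and 44.5 CPM in the controls. The groups did not overlap, and the log2 fold change was 0.38 (SE 0.13, unadjusted p = 0.012). TRA2B had 151, 184 and 175 CPM against 128, 163 and 92.0 CPM. Its groups overlapped through Vector control replicate 2, with a log2 fold change of 0.41 (SE 0.17, unadjusted p = 0.028).

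Of the 22 hnRNPs tested, 17 had positive log2 fold changes, against 10136 of all 19528 genes tested. At an unadjusted p under 0.05, 7 hnRNPs were higher and 0 were lower, against 13.1% and 5.26% of all genes tested. The HNRNPH group, which binds G-rich runs near splice sites, held the highest value of the family. HNRNPH2 on chromosome X had 53.8, 55.7 and 58.7 CPM with GC0643 overexpression and 37.9, 51.9 and 26.3 CPM in the controls. The groups did not overlap and the log2 fold change was 0.54 (SE 0.19, unadjusted p = 0.012). RPL36A-HNRNPH2, a read-through transcript on the same strand, shares 15.8% of the HNRNPH2 exons. It had a mean of 402 CPM and a log2 fold change of 0.30, and its part in the HNRNPH2 count was not tested. HNRNPH3 had 114, 114 and 120 CPM against 86.4, 113 and 60.1 CPM, which did not overlap by a margin of less than 1 CPM. HNRNPH1, the most abundant of the group, had 0.34 on the log2 scale (unadjusted p = 0.052). HNRNPF, the other member of this subfamily, had 0.15.

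HNRNPD and HNRNPDL lie close to each other on chromosome 4. HNRNPDL had 221, 240 and 269 CPM with GC0643 overexpression and 177, 227 and 151 CPM in the controls, a log2 fold change of 0.40 (SE 0.15, unadjusted p = 0.016). HNRNPD, the AU-rich element binding protein AUF1, had a log2 fold change of 0.00 (SE 0.13). The difference between the pair was not tested.

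HNRNPK, which binds C-rich RNA and single-stranded DNA, had 582, 650 and 692 CPM with GC0643 overexpression and 479, 622 and 381 CPM in the controls. The log2 fold change was 0.38 (SE 0.15, unadjusted p = 0.026). HNRNPK-AS1, which overlaps 5.42% of its exons on the opposite strand, had a log2 fold change of 0.42 and at least 1331 counts in every library. Without known strand handling, reads of the pair cannot be told apart. HNRNPR, an RNA-binding protein related to SYNCRIP, had 176, 163 and 189 CPM against 132, 174 and 98.8 CPM, a log2 fold change of 0.39 (SE 0.17, unadjusted p = 0.034).

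HNRNPA1 had 1314, 1278 and 1377 CPM with GC0643 overexpression and 1035, 1309 and 811 CPM in the controls, a log2 fold change of 0.33 (SE 0.14, unadjusted p = 0.036). HNRNPA1L3, a near copy of HNRNPA1 with 45.8% of its own stretches found elsewhere, had 13.8, 16.8 and 16.6 CPM against 12.8, 14.0 and 9.77 CPM. HNRNPA3 had 286, 277 and 306 CPM against 234, 287 and 166 CPM, and 53.6% of its exons lie opposite NFE2L2. Vector control replicate 2 lay inside the overexpression range for all 3 genes, and replicate 3 was lowest. HNRNPA2B1 had 945, 1038 and 1128 CPM against 798, 1062 and 545 CPM, a log2 fold change of 0.37 (SE 0.18, unadjusted p = 0.055). HNRNPAB had 398, 557 and 535 CPM against 540, 560 and 431 CPM, a log2 fold change of −0.04 (SE 0.14), with overlapping groups.

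Members that varied little were also present. HNRNPUL2, named after its values were seen, had 184, 185 and 182 CPM against 190, 189 and 185 CPM, and its highest CPM was 1.05 times its lowest. HNRNPUL2-BSCL2, a read-through transcript on the same strand, shares 44.3% of the HNRNPUL2 exons and had a log2 fold change of −0.07 against −0.03 for HNRNPUL2. HNRNPA0, an intronless gene, had a log2 fold change of −0.06 (SE 0.11). The remaining hnRNPs lay between −0.20 for HNRNPUL1 and 0.32 for HNRNPU, the scaffold-forming protein also known as SAF-A. Pseudogene rows named after 20 of the members held at most 3.64% of the counts of their member, in HNRNPC, and adding them changed no direction.

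The transcripts of the members were poor in G and C, and fold changes were lower in GC-rich members. The median GC content of the canonical transcripts was 42.4% for the 39 members, against 49.4% over all genes tested. Spearman's rho between log2 fold change and GC content was −0.67 across 19401 genes and −0.62 across the 39 members, which share the same 6 libraries and are not independent replicates. Of the 13 members with the lowest GC content, 35.1% to 40.2%, all 13 had positive fold changes with a median of 0.35. The next 13 had 12 positive and a median of 0.33. Of the 13 with the highest GC content, 46.0% to 60.5%, 6 were positive and the median was −0.03. Over all genes tested, bins of GC content centred on 36.25%, 38.75%, 43.75% and 53.75% had medians of 0.37, 0.34, 0.24 and −0.13. Across the 39 members within a library, deviations from the mean had a rho with GC content from −0.53 to −0.35 in the overexpression libraries. It was −0.21 in Vector control replicate 2 and 0.53 and 0.42 in Vector control replicates 1 and 3.

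After a loess correction for GC content in each library, the median of the members was 0.07, against −0.00035 over all genes. At an unadjusted p under 0.05, 1 member, U2AF1, was then higher, against a background of 2.87%, and 1 member, HNRNPA0, was lower, against a background of 3.24%. U2AF1 had 2.1 (SE 0.61, unadjusted p = 0.0044) and HNRNPA0 −0.33 (SE 0.11, unadjusted p = 0.0089). HNRNPH2 kept 0.32 (SE 0.15) and HNRNPDL 0.26 (SE 0.12), at unadjusted p of 0.0518 and 0.0504. SRSF3 had 0.13, TRA2A 0.11, HNRNPK 0.14 and HNRNPA1 0.12 in the corrected fit. Thus 13 of the 14 members that were higher in the counts as deposited did not pass after this correction.

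**Figure D4:**
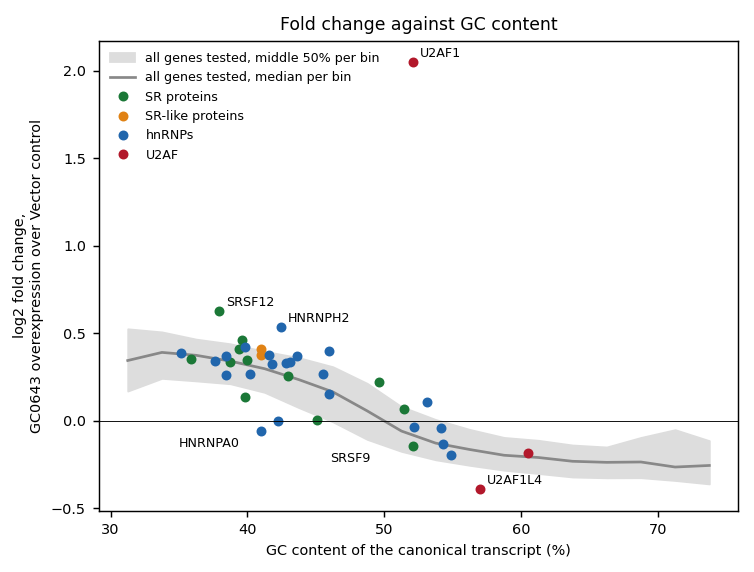
Log2 fold change of GC0643 overexpression over Vector control against the GC content of the canonical transcript in per cent, with the 39 members as coloured points and all genes tested as the median (line) and middle 50% (band) of bins. Most members lie in or near the band that falls from left to right, and U2AF1 lies far above it.

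**Figure D5:**
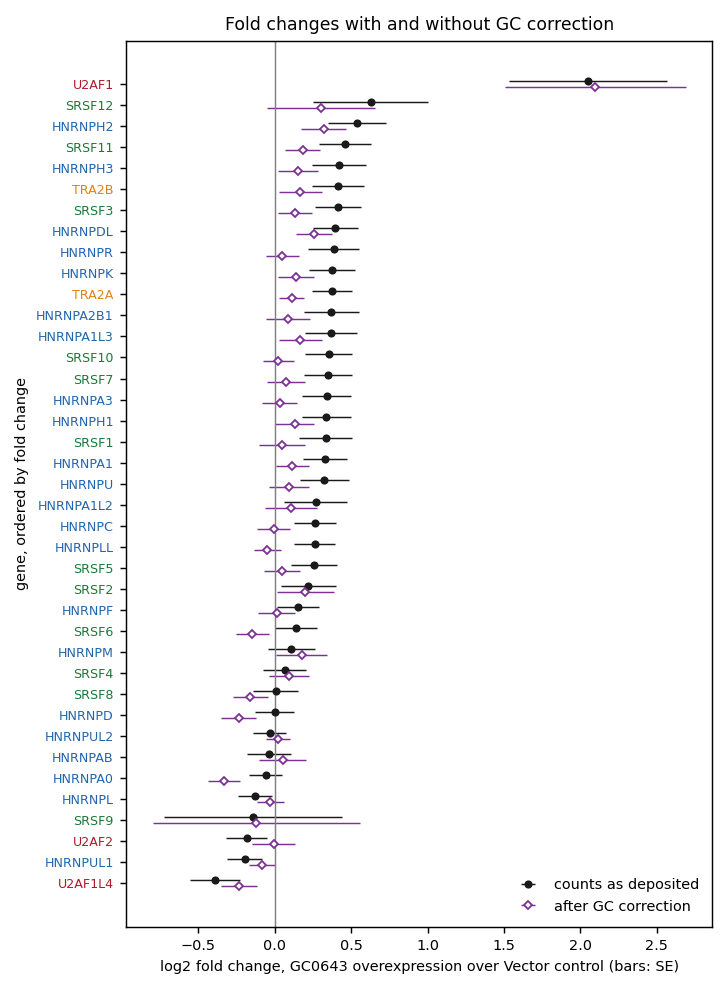
Log2 fold changes of the 39 members with SE bars, from the counts as deposited (filled circles) and after GC correction (open diamonds). The corrected values gather around the member median of 0.07, while U2AF1 stays at 2.1 and HNRNPA0 lies at −0.33.

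The call depended on 1 control library. Without Vector control replicate 2, the median of the members was 0.49 and 21 of 39 passed an adjusted p under 0.05 in the quasi-likelihood test. Of these, 20 were higher, against 14.7% of all genes tested in that fit, and U2AF1L4 was lower, against 4.36%. By family they were 5 SR proteins, both SR-like genes, 12 hnRNPs and 2 U2AF genes. HNRNPH2 had a log2 fold change of 0.81 and SRSF11 0.70 in that fit. With the GC correction in the same fit, an alternative chosen after the data were seen, 0 members passed, against 0 of 19988 genes tested. The member median was 0.18, against 0.0043 over all genes. Without the adjustment, 6 members were higher and 2 lower at p under 0.05, against 1364 and 1062 of 19988 genes tested. Without Vector control replicate 3, 1 member, U2AF1, passed, against 29 of 19847 genes tested, and the member median was 0.15.

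Genes that work with these factors were examined in 9 lists with 114 entries, of which 112 were tested. Higher at an unadjusted p under 0.05 were 20 of them (17.9%, against 13.1% of all genes tested) and lower 3 (2.68%, against 5.26%). None of the 112 passed the adjusted p in edgeR's quasi-likelihood test, and the median was 0.13. Without Vector control replicate 2, 32 were higher at an adjusted p under 0.05 in the same test (28.6%, against 14.7% of all genes) and 4 lower (3.57%, against 4.36%). With GC correction in that fit, 0 of the 112 passed the adjusted p, against 0 of 19988 genes tested. The kinases and the importer of SR proteins, which phosphorylate the arginine-serine tails and carry the proteins into the nucleus, had 6 of 10 genes higher, 0 lower and a median of 0.35. CLK1, a nuclear kinase that releases SR proteins from speckles, had 15.3, 14.9 and 15.4 CPM with GC0643 overexpression and 7.88, 11.9 and 7.48 CPM in the controls. Its groups did not overlap, and the log2 fold change was 0.74 (SE 0.19, unadjusted p = 0.0011), or 0.45 (unadjusted p = 0.0051) after GC correction. CLK4 had 10.8, 8.59 and 11.1 CPM against 5.47, 8.30 and 6.03 CPM, with a log2 fold change of 0.63 (SE 0.19) and 0.30 after GC correction. SRPK2 had 0.36.

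Each list is set against all genes tested, of which 13.1% were higher and 5.26% lower at the same p, with a median of 0.02. Of 8 U1 snRNP and 5′ splice site factors, 2 were higher and the median was 0.08. TIA1 had 0.44, LUC7L3 0.41 and LUC7L2 0.31. Of 12 U2 snRNP proteins, 3 were higher, SF3B1 with 0.46, SF3B6 with 0.43 and SNRPB2 with 0.42, and the median was 0.06. Of 12 branch point and 3′ splice site partners of U2AF, 2 were higher and 1 was lower. UHMK1, the kinase that phosphorylates SF1, had 0.44, the helicase DHX15 0.45 and RBM10 −0.31. Among 7 Sm proteins tested and 14 tri-snRNP proteins, 0 were higher, and PRPF31 was lower with −0.27. SNRPD1, SNRPE and SNRPD3 had 0.33, 0.33 and 0.23, and SART1 and PRPF4 −0.21 and 0.35.

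Other lists held regulators and decay factors, set against the same 13.1% of all genes higher and 5.26% lower. Of 14 hnRNP proteins with other symbols, 3 were higher, SYNCRIP with 0.50, PTBP3 with 0.46 and PTBP2 with 0.43, and the median was −0.08. Of 21 other splicing regulators tested, 2 were higher, MBNL1 with 0.42 and QKI with 0.30, beside 0.27 for RBFOX2. Of 14 nonsense-mediated decay factors, SMG1 with 0.31 and UPF2 with 0.39 were higher and SMG5 with −0.29 was lower. After GC correction, 2 of the 112 genes were higher (1.79%, against 2.87% of all genes) and 1 was lower (0.893%, against 3.24%), CLK1 and ESRP2 among the first and PCBP2 the last. ESRP2 and PCBP2 were named after their values were seen.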

How the data were processed

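RNA was sequenced from NEBNext Ultra libraries of HGC-27 cells. Per the labels, the authors used Trimmomatic 0.32, HISAT2 2.1.0 with GRCh38, and featureCounts 2.0.0, and deposited raw counts per Ensembl gene. The study's methods give counting options (unique mapping, overlapping genes both counted, no strand setting) for its tumour RNA-seq only, and they were not assumed for these libraries. Genes were matched to GENCODE version 44 (58472 of 58825). After filterByExpr and TMM scaling, edgeR 4.0.16 in R 4.3.3 fitted the group alone by its quasi-likelihood model, with Benjamini-Hochberg adjustment over 19528 genes. Alternatives used DESeq2 1.42.0, limma 3.58.1, other filters, loess offsets (span 0.3), a replicate block and leaving out each library. Code was tested on simulated data. Members and lists were chosen with earlier results of these data known. The text gives per library the U2AF and TRA2 genes, the 12 other members with the smallest p and the 3 most abundant SR proteins and hnRNPs, and 3 genes per list plus CLK1 and CLK4. The labels do not say whether replicates were separate cultures, so p-values measure the spread between these libraries.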

Additional observations from a re-analysis of the deposited data

How the results depend on the processing

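The directions of the medians of members, SR proteins and hnRNPs and of U2AF1 held under every alternative run. The sum of U2AF1 and U2AF1L5 was not run because U2AF1L5 was not analysed here. Members at an adjusted p under 0.05 numbered 2 with no filter on low counts, 1 with the replicate block and 0 to 21 when 1 library was left out. Over all genes tested, the same settings gave 224 of 36223, 24 of 19528 and 0 to 3813. Members higher at an unadjusted p under 0.05 numbered 1 after GC correction, against 561 of all 19528 genes tested. They numbered 8 after length correction, against 1572, and 2 under the replicate block with GC correction, against 395. When 1 library was left out they numbered 2 to 24, against 827 to 4564. Without Vector control replicate 2 with GC correction they numbered 6, against 1364 of 19988. Members lower numbered 0 under the replicate block, against 314 of 19528 genes, and 2 after length correction, against 1688. When 1 library was left out they numbered 0 to 2, against 367 to 2842. Without Vector control replicate 2 with GC correction they numbered 2, against 1062 of 19988. Members past the study's thresholds numbered 2 with limma voom, against 554 of 19528 genes, and 2 under the replicate block, against 492. Without Vector control replicate 2 with GC correction they numbered 2, against 637 of 19988. They numbered 1 to 9 when 1 library was left out, against 406 to 2141. The member median was 0.0745 after GC correction and 0.079 under the replicate block with GC correction, and the hnRNP median 0.0681 after GC correction. U2AF1 passed the adjusted p with no filter (2.05) and under the replicate block (1.64), and ranged from 0.85 to 2.5 when 1 library was left out. Genes of the pathway lists at an unadjusted p under 0.05 numbered 23 in the counts as deposited and 3 after GC correction. They numbered 3 under the replicate block with GC correction and 5 to 59 when 1 library was left out. Without Vector control replicate 2 with GC correction they numbered 15. Over all genes tested, 2553 were higher and 1028 lower as deposited, and 561 and 633 after GC correction. SRSF9 ranged from −1.17 to 1.15 when 1 library was left out and was 1.23 without Vector control replicate 2 with GC correction. QKI turned to −0.0125 after GC correction, −0.0131 under the replicate block with GC correction and −0.0143 without Vector control replicate 2 with GC correction. The cause of these changes was not tested. Deviations from the group means of same-numbered libraries had Pearson's r across genes of −0.31, −0.12 and −0.41. No library correlated best with its own number. Such deviations cancel within a group, so these values cannot decide whether same-numbered libraries share more than a number. The replicate block pairs them by number alone. Counts were low for SRSF12, with 10 to 25 per library, and for the 4 HNRNPCL genes, with at most 2, and the cause was not tested.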
